A study of Mus musculus with 6 samples.

Results

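The genes described here are interleukins and interleukin receptors measured in mouse bone marrow cells, taken as every probe set whose annotation gives exactly 1 gene symbol that begins with Il and goes straight on with a number. The rule leaves out 14 symbols, mostly of interleukin 1, interleukin 18 and interleukin 33 and their receptors. It selected 60 genes of 18193, read by 93 probe sets of 45037: 29 ligand genes with 37 probe sets, 26 receptor genes with 49 and 5 other symbols with 7. The members were meant to lie outside the IL-1 family, but the rule kept 10 symbols that belong to or act on it (Il1f5, Il1f6, Il1f8, Il1f9, Il1f10, Il1rl2, Il1rapl1, Il1rapl2, Il18bp and Il1bos), and these are described as IL-1 related. Il1bos, an antisense RNA of Il1b, was set among the other symbols and not among the ligands. Il2rg and Il27 were not analysed here.

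The study compared 3 arrays of myeloid bone marrow cells from ASXL1-MT-transplanted mice with 3 arrays from mock-transplanted mice, the normal control. ASXL1 is a Polycomb-associated chromatin regulator that is often truncated in myeloid malignancy. The labels give the ASXL1-MT mice a disease like myelodysplastic syndrome, and the titles of both groups carry the prefix BMT. The series text says that cells of both groups were depleted with antibodies to CD3e, B220 and TER-119, which mark T cells, B cells and erythroid precursors, while the source label names this depletion for the mock cells alone. Strain, age, how ASXL1-MT was introduced and what the mock mice received are not given in the sources used here. Neither is it said whether the 3 samples of a group were separate mice or pools, so p-values reflect the variation among these particular samples alone, and that variation may be technical.

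Interleukins are secreted proteins by which leukocytes and stromal cells signal to each other. Most bind a receptor built from a private chain and, in many families, a chain shared with other cytokines. The common gamma chain, gp130 (Il6st), the IL-10 receptor beta chain and the beta chain shared by the IL-3, IL-5 and GM-CSF receptors are such shared chains, and they act through Janus kinases and STAT factors. IL-17 receptors instead signal through the adaptor Act1 (Traf3ip2). In marrow, IL-6 and IL-3 act on progenitors, IL-4 and IL-13 are products of basophils, mast cells and lymphoid cells, and IL-12 is made by dendritic cells and macrophages.

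Values are log values taken as log2, and each probe set is centred on its own median over the 6 arrays, so a value above 0 is brighter than that median and absolute levels are not known. A change or difference means the mean of the ASXL1-MT arrays less that of the mock arrays, so positive changes are higher in ASXL1-MT. A probe set passed when limma's p-value, adjusted by the Benjamini-Hochberg method over the whole table, was under 0.05. A probe set is called bright where the rounding of its 3 highest arrays puts their signal at 256 or more for base 2, and dim otherwise. Folds of dim probe sets may rest on signals near background, though a median that lies between the groups can also hide brightness. When all arrays of a group lie above all of the other, the lowest array of the upper group and the highest of the lower group are equal in size with opposite signs, because of the centring. Array medians lay between -0.053 and 0.050, and over all probe sets the median change was 0.11.

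Of the member probe sets, 8 of 93 passed, or 8.60%, with 4 higher and 4 lower in ASXL1-MT. Among all probe sets 8.10% passed, 4.73% higher and 3.37% lower, so the members' share lay near the background. The members' median change was -0.04. On gene means 7 of 60 members passed, or 11.7%, with 3 higher and 4 lower, against 11.4% of all genes, 6.63% higher and 4.75% lower. Il12a, Il1f9, Il13, Il15, Il6 and Il17rb have 1 probe set each, so their gene means hold the same values as the probe set. Their results on the 2 levels differ only in the pool fitted and adjusted over, and neither adds support to the other. The groups did not overlap in 26 of 93 member probe sets, or 27.96%, against 35.4% of all probe sets. What the members show is therefore described gene by gene. Among ligand genes 1 of 29 was higher (Il12a) and 4 were lower (Il1f9, Il13, Il15 and Il6). Among receptor genes 2 of 26 were higher (Il17rb and Il31ra) and 0 were lower in limma, against 6 higher and 2 lower at an unadjusted p under 0.05. On receptor probe sets 3 of 49 were higher and 0 lower, against 8 and 5 at an unadjusted p under 0.05.

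**Figure D1:**
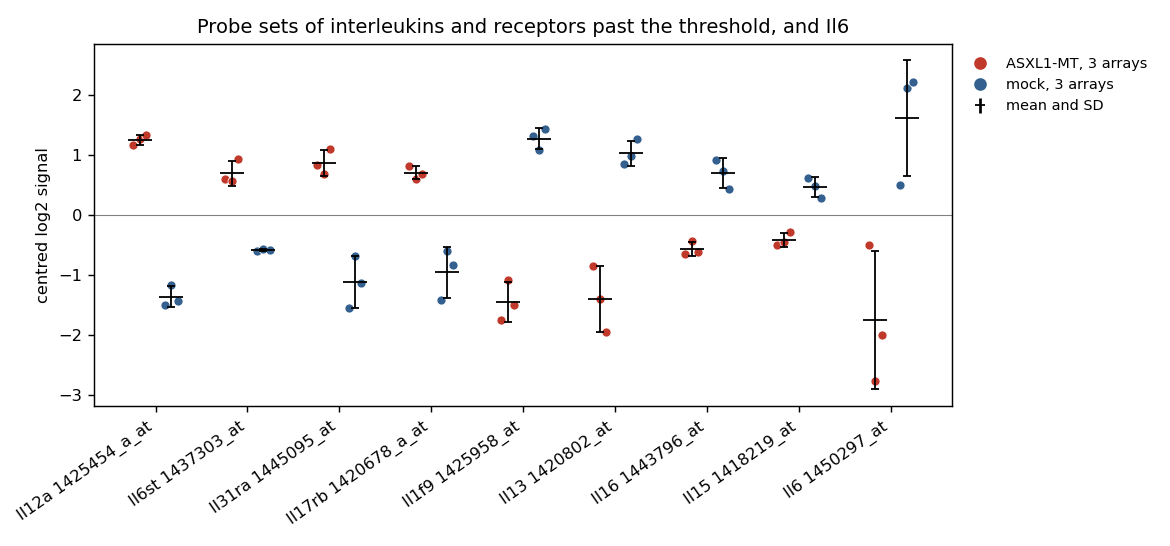
Centred log2 signal (vertical axis) of the 8 member probe sets that passed the threshold and of Il6, with the 3 ASXL1-MT arrays in red and the 3 mock arrays in blue. Black bars give the mean and SD. The groups do not overlap in any probe set shown, and Il6 has the widest spread, from -2.75 to 2.22.

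Il12a encodes the p35 subunit, which joins the p40 subunit (Il12b) to form IL-12, a cytokine that drives interferon gamma production. Its probe set 1425454_a_at read 1.16, 1.26 and 1.33 in ASXL1-MT replicates 1 to 3 and -1.49, -1.16 and -1.43 in mock replicates 1 to 3. All ASXL1-MT arrays were high and all mock arrays low, with little spread within a group. The change was 2.61 with an SE of 0.16 (95% interval 2.21 to 3.02), or 6.12-fold higher, at an adjusted p of 0.0100, in a bright probe set. Leaving out each array in turn, the change stayed between 2.55 and 2.71 and passed in 4 of 6 fits on the probe set and 6 of 6 on gene means. Its partner Il12b did not pass: probe set 1419530_at, bright, had a difference of 1.49 with mock replicate 1 at -3.65, and 1449497_at, dim, of -0.45. Il23a, the p19 subunit that pairs with p40 to form IL-23, had a difference of 0.86 that did not pass, and its lowest value, -3.85, was in mock replicate 1 as well.

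Il1f9, the older symbol of IL-36 gamma, an epithelial and myeloid alarm cytokine, went the other way. Probe set 1425958_at, bright, read -1.74, -1.09 and -1.49 in the ASXL1-MT arrays and 1.31, 1.09 and 1.43 in the mock arrays. Every ASXL1-MT array was low and every mock array high. The change was -2.71 with an SE of 0.23 (95% interval -3.29 to -2.14), 6.56-fold lower, at an adjusted p of 0.0127. It passed in 3 of 6 fits that left out an array, and in 6 of 6 on gene means.

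Il13, a type 2 cytokine of mast cells, basophils and helper T cells, was lower as well. Probe set 1420802_at read -0.85, -1.39 and -1.95 in the ASXL1-MT arrays and 0.85, 0.98 and 1.26 in the mock arrays. The groups were apart, with the wider spread among the ASXL1-MT arrays. The change was -2.43 with an SE of 0.32 (95% interval -3.24 to -1.62), 5.38-fold lower, at an adjusted p of 0.0228, in a dim probe set. It passed in 1 of 6 fits that left out an array (2 of 6 on gene means).

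Il6, the ligand of the gp130 pathway, had the largest change of the ligands and also an uneven one. Probe set 1450297_at, bright, read -0.50, -2.75 and -2.0 in the ASXL1-MT arrays and 0.50, 2.12 and 2.22 in the mock arrays. Replicate 1 of each group lay near the middle and the other 4 arrays far from it. The change was -3.36 with an SE of 0.76 (95% interval -5.28 to -1.43), 10.3-fold lower. The adjusted p was 0.0598 on the probe set, which did not pass, and 0.0498 on gene means, which did. Both rest on the same values, because Il6 has 1 probe set. The gene mean passed in 1 of 6 fits that left out an array, and not with a robust fit without trend (adjusted p 0.0573). With a trend it passed, both robust (0.0272) and not (0.0365).

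The promoters of these 4 ligands, which carry the largest changes among the members, are printed from RefSeq (GRCm38.p6), each as 300 bases from 250 before to 50 after the annotated start on the gene's strand, in lower case with motif matches in capitals. Il12a is the first of its 2 entries, at chr3:68690394-68690693 on the plus strand. Il1f9 lies at chr2:24186226-24186525 on the plus strand. Il13 lies at chr11:53634653-53634952 on the minus strand. Il6 lies at chr5:30012864-30013163 on the plus strand.
Il12a: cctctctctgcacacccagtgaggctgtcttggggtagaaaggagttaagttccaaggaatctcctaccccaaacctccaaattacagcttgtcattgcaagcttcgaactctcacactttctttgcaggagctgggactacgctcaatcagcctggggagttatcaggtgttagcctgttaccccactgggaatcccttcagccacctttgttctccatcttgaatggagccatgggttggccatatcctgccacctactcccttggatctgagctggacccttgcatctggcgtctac
Il1f9: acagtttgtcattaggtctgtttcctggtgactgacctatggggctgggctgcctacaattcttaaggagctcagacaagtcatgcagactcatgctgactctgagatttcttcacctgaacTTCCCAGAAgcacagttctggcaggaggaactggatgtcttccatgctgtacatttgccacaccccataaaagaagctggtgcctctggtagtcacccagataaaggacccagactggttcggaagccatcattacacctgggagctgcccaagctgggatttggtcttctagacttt
Il13: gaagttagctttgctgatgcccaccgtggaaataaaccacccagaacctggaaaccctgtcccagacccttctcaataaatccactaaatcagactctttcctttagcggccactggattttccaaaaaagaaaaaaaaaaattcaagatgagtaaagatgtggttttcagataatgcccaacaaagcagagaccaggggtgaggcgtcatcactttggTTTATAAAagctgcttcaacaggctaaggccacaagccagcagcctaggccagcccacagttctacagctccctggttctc
Il6: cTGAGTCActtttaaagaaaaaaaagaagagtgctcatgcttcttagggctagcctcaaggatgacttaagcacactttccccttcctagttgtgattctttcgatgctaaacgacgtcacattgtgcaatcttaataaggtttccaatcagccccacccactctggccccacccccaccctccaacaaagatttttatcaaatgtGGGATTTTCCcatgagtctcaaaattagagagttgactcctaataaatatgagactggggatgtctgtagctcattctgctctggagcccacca
The motifs searched on both strands were the NF-kappaB site (10 letters), AP-1 (TGANTCA), STAT (TTCNNNGAA) and the TATA box (TATAAA). The Il6 window held GGGATTTTCC, an NF-kappaB match, starting at -44 from the start site and TGAGTCA, an AP-1 match, at -249. Il13 held TATAAA at -29 and, on the other strand, TTTATA at -31, which overlap. Il1f9 held the STAT match TTCCCAGAA at -128, and neither Il12a entry held any of the 4 motifs. Among the receptors that passed, the Il31ra window held TTCCAGGAA (STAT) at -191 and the Il17rb window TGAGTCA at -104. Of 32851 promoters of this length, 8.46% held the NF-kappaB motif, 7.81% AP-1, 8.30% STAT and 13.6% the TATA box. A match of letters is a description and shows no binding. Promoters were matched for 44 of 60 member genes and for 6 of 7 that passed on gene means.

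Il15, which shares receptor chains with IL-2 and sustains natural killer cells, had the smallest change of those that passed. Probe set 1418219_at, bright, read -0.50, -0.45 and -0.29 in the ASXL1-MT arrays and 0.62, 0.48 and 0.29 in the mock arrays. The groups did not overlap. The change was -0.88 with an SE of 0.16 (95% interval -1.29 to -0.46), 1.83-fold lower, at an adjusted p of 0.0406. It passed in 0 of 6 fits that left out an array, where the adjusted p ran from 0.0808 to 0.133. Its private receptor chain Il15ra had a gene mean difference of 0.29 and did not pass.

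Il16, a chemoattractant of CD4+ cells, is read by 4 probe sets that differed from each other. Probe set 1443796_at, bright, read -0.64, -0.44 and -0.62 in the ASXL1-MT arrays and 0.92, 0.74 and 0.44 in the mock arrays, with no overlap. Its change was -1.26 with an SE of 0.19, 2.40-fold lower, at an adjusted p of 0.0268, and it passed in 0 of 6 fits that left out an array. The other bright probe sets had differences of -0.93 (1417391_a_at, adjusted p 0.0930) and -0.13 (1448686_at, adjusted p 0.790), and the dim 1447814_x_at of 0.45 (adjusted p 0.698). The Il16 gene mean, at -0.47 with an adjusted p of 0.358, did not pass.

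Ligands that did not pass include several with large values on single arrays. Il4, the main cytokine of type 2 responses, read -0.16, -0.38 and -0.88 in the ASXL1-MT arrays and 0.16, 1.56 and 1.57 in the mock arrays. As in Il6, replicate 1 of each group lay nearest the middle. Its difference was -1.57 with an SE of 0.46, 2.97-fold, with an adjusted p of 0.0888 on the gene mean. Without mock replicate 1 the difference was -2.04 with an adjusted p of 0.0420. The Il4 gene mean passed in only this 1 of 6 fits that left out an array, where the adjusted p ran up to 0.226. Il3, a growth factor of mast cells, basophils and progenitors, read 0.05, -0.12 and -0.05 in the ASXL1-MT arrays and -0.14, 0.76 and 2.65 in the mock arrays. The groups overlapped, mock replicate 3 stood apart, and the difference of -1.13 with an SE of 0.72 had an adjusted p of 0.365. Il10, which restrains inflammation, read 2.54, -0.97 and -0.94 in the ASXL1-MT arrays and 0.04, -0.04 and 0.61 in the mock arrays. A single ASXL1-MT array was high, and the group means of Il10 were 0.01 apart with an SE of 1.03. Il17b had a gene mean difference of -1.05 with an SE of 0.30 (adjusted p 0.0815), and Il34, a ligand of the CSF1 receptor, 1.29 with an SE of 0.76 (adjusted p 0.325). The 2 dim probe sets of Il7, the stromal lymphoid growth factor, had differences of opposite sign, 1.10 and -0.49, and did not pass.

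**Figure D2:**
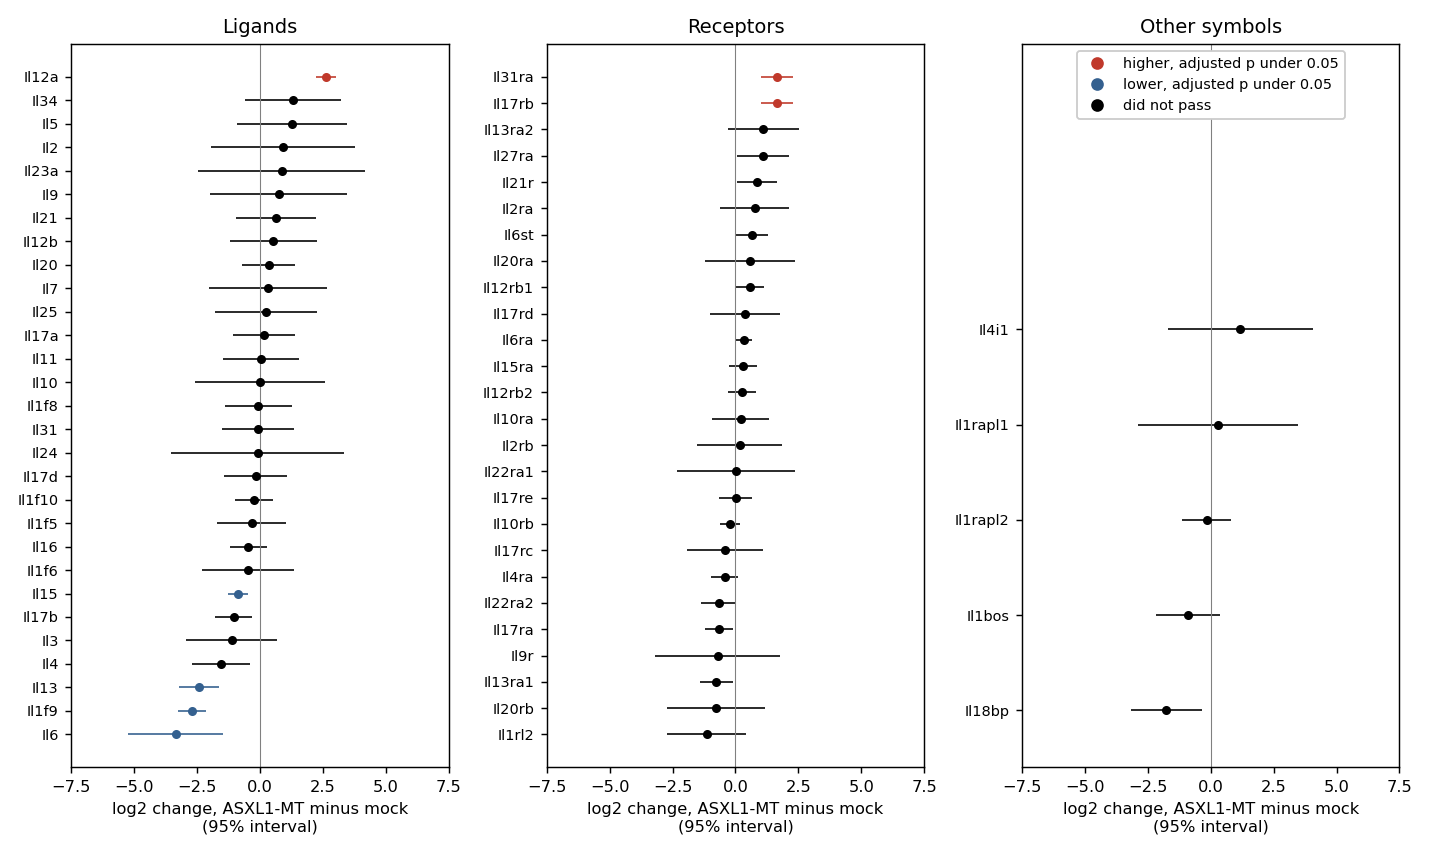
Change of each member gene mean on the log2 scale (horizontal axis, ASXL1-MT minus mock, with its 95% interval) for 29 ligands, 26 receptors and 5 other symbols. Red and blue points passed as higher and lower, and black points did not pass. Most ligand intervals are wide and cross 0, and 4 ligands passed as lower against 1 as higher.

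Among the receptors, Il17rb, a chain of the receptor for IL-25 and IL-17B, was higher. Probe set 1420678_a_at, bright, read 0.82, 0.60 and 0.69 in the ASXL1-MT arrays and -1.42, -0.60 and -0.83 in the mock arrays. All ASXL1-MT arrays lay above all mock arrays. The change was 1.65 with an SE of 0.25 (95% interval 1.01 to 2.29), 3.14-fold higher, at an adjusted p of 0.0285. It passed in 0 of 6 fits that left out an array, and in 2 of 6 on gene means. The chain Il17ra, which IL-17 family receptors share, had differences of -0.84 (1420905_at, adjusted p 0.0857) and -0.50 (1420904_at, adjusted p 0.304) and did not pass.

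Il31ra pairs with the oncostatin M receptor to bind IL-31. Its dim probe set 1445095_at read 0.83, 0.68 and 1.10 in the ASXL1-MT arrays and -1.55, -0.68 and -1.12 in the mock arrays. The groups did not overlap, and the change was 1.99 with an SE of 0.27, 3.96-fold higher, at an adjusted p of 0.0241. The second, dim as well, had a difference of 1.32 with an SE of 0.41 and an adjusted p of 0.118. The Il31ra gene mean was higher by 1.65 with an SE of 0.25, at an adjusted p of 0.0211, and passed in 1 of 6 fits that left out an array. Osmr, the partner chain, had a difference of -0.11 and did not pass.

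Il6st encodes gp130, the chain through which IL-6, IL-11 and related cytokines signal. Probe set 1437303_at, bright, read 0.59, 0.56 and 0.94 in the ASXL1-MT arrays and -0.59, -0.56 and -0.58 in the mock arrays. The mock arrays were nearly equal, and all lay below the ASXL1-MT arrays. The change was 1.27 with an SE of 0.17 (95% interval 0.85 to 1.69), 2.42-fold higher, at an adjusted p of 0.0221, and it passed in 0 of 6 fits that left out an array. Of the other Il6st probe sets, 1452843_at (bright) had a difference of 0.80, 1460295_s_at (dim) of 0.63 and 1421239_at (dim) of -0.04, and none of the 3 passed. The Il6st gene mean was 0.66 with an adjusted p of 0.152 and did not pass. The IL-6 binding chain Il6ra had a gene mean difference of 0.33 (adjusted p 0.186) and did not pass.

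**Figure D3:**
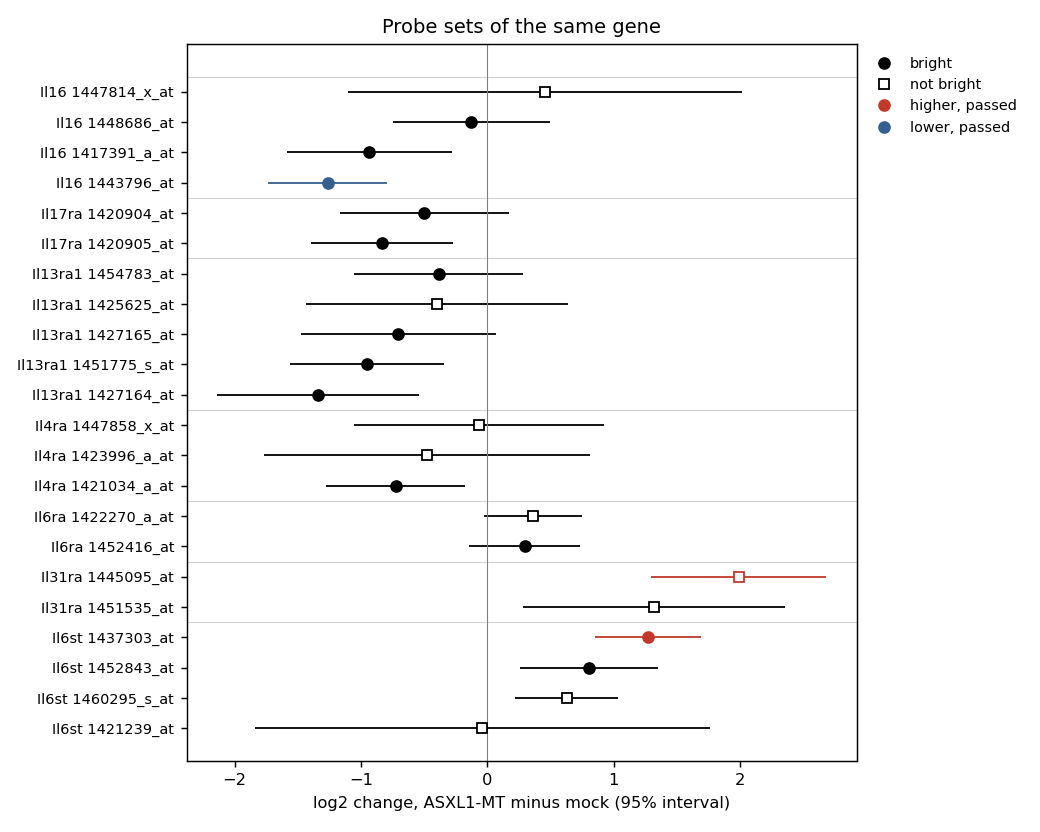
Change on the log2 scale (horizontal axis, ASXL1-MT minus mock, with its 95% interval) of each probe set of 7 genes that have several. Filled circles are bright probe sets, open squares dim ones, red passed as higher and blue as lower. Probe sets of Il16 run from -1.26 to 0.45 and those of Il6st from -0.04 to 1.27.

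The 5 probe sets of Il13ra1, the chain that forms the type 2 receptor with Il4ra, all had differences below 0 that did not pass. They ran from -1.34 (1427164_at, adjusted p 0.0654) to -0.39 (1454783_at, adjusted p 0.419), and the Il13ra1 gene mean was -0.76 with an SE of 0.26 (adjusted p 0.131). Il4ra had a bright probe set, 1421034_a_at, at -0.73 (adjusted p 0.109), and dim ones at -0.48 and -0.06. Il21r had a difference of 0.87 with an SE of 0.32 (adjusted p 0.142 on the gene mean), in groups that did not overlap. Gene mean differences of other receptor chains were 0.77 for Il2ra, 0.17 for Il2rb, 0.21 for Il10ra, -0.21 for Il10rb and 0.57 for Il12rb1, and none passed.

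Of the 5 other symbols none passed in limma, with 1 lower at an unadjusted p under 0.05. This was Il18bp, the secreted decoy that binds IL-18, which read -2.45, -0.50 and -0.61 in the ASXL1-MT arrays and 0.72, 0.55 and 0.50 in the mock arrays. ASXL1-MT replicate 1 was far below the rest, the groups did not overlap, and the gene mean difference was -1.78 with an SE of 0.56 (adjusted p 0.105). Without that array the difference was -1.15 at an adjusted p of 0.0415. The Il18bp gene mean passed in only this 1 of 6 fits that left out an array, where the adjusted p ran up to 0.221. Il1bos had a difference of -0.91 (adjusted p 0.301) and Il4i1, a secreted amino acid oxidase, of 1.17 (adjusted p 0.561).

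Beside the 11.4% of all genes that passed, the families held 0 to 2 such genes each, and these counts are not a result about any family. All 5 genes of the IL-12 and IL-23 group had changes above 0, with a median of 0.57, and 1 passed. The shared sign and this median rest on mock replicate 1. Without it 3 of 5 were above 0, the median was 0.14, and Il12b and Il23a were at -0.23 and -0.57. Il12a, the gene that passed, was at 2.55 without it. In the common gamma chain group 1 of 13 passed, as lower, with a median of 0.31. In the IL-6 and gp130 group 1 of 7 was higher and 1 lower, with a median of 0.33. The IL-17 group had 1 of 9 higher and a median of 0.01, and the IL-13 group 1 of 3 lower and a median of -0.76. The IL-1 related group had 1 of 10 lower and a median of -0.41, with 9 of 10 below 0 (6 of 10 without ASXL1-MT replicate 1). None of 9 genes in the IL-10 group passed in limma (0 also at an unadjusted p under 0.05), with a median of 0.01. None of the 2 genes of IL-3 and IL-5 and of the 2 remaining genes passed. Ligand genes had a median change of -0.07 and receptor genes of 0.23, against 0.11 over all genes. Leaving out each array in turn, the ligand median ran from -0.32 (without ASXL1-MT replicate 2) to 0.25 (without ASXL1-MT replicate 1) and the receptor median from 0.16 to 0.34. The medians of the IL-10 group, the IL-17 group and the 2 genes of IL-3 and IL-5 took either sign. The difference between ligands and receptors was not tested.

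Many members were measured in dim signal. Of the member probe sets 24 of 93 were bright, or 25.8%, against 38.2% of all probe sets: 9 of 37 for ligands and 15 of 49 for receptors. The median SD within groups was 0.85 for dim and 0.26 for bright members, against 0.81 and 0.18 for all dim and all bright probe sets. Fitted alone, 39.4% of the bright probe sets passed, 23.6% higher and 15.8% lower, and 13 of the 24 bright members did, or 54.2%, with 4 higher and 9 lower. Brightness is set by the 3 highest arrays and the median they are centred on. Those arrays are the whole of the higher group in the 14 of 24 bright members whose groups do not overlap. These members entered the fit through the group in which they are high, so its counts and p-values are given as a description and support no difference. Lower among them, beside Il1f9, Il15 and Il16, were Il6 (adjusted p 0.0155), Il17ra 1420905_at (0.0187), Il4ra 1421034_a_at (0.0265) and Il13ra1 1427164_at (0.0153) and 1451775_s_at (0.0168). Receptors had 3 higher and 4 lower probe sets of 15 in that fit.

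Interleukin-type cytokines and receptors with other symbols were read from a list of 16, of which 14 were measured. Of these 0 were higher and 4 lower, beside 6.63% and 4.75% of all genes. The median change was -0.35, with 1 higher and 5 lower at an unadjusted p under 0.05 in limma. The list was chosen with earlier results of these data known, so its count is not a result about the list. Tslp, an IL-7-like cytokine of type 2 immunity, read -3.24, -3.64 and -3.72 in the ASXL1-MT arrays and 3.46, 3.58 and 3.24 in the mock arrays. The groups lay far apart, and the Tslp gene mean changed by -6.96 with an SE of 0.19, 124-fold lower, at an adjusted p of 0.00231, which passed in 6 of 6 fits that left out an array. Its only probe set was dim, so the fold may reach down to background, and a median that lies between the groups can also hide brightness from the rounding. Crlf2, the Tslp receptor chain, bright, read -0.45, -0.67 and -0.66 in the ASXL1-MT arrays and 0.53, 0.45 and 0.60 in the mock arrays. It changed by -1.12 with an SE of 0.14, 2.18-fold lower, at an adjusted p of 0.0143, and passed in 3 of 6 such fits. The beta chain Csf2rb and its near-identical copy Csf2rb2 each changed by -1.10, 2.14-fold lower, at adjusted p of 0.0181 and 0.0196, and passed in 1 of 6 and 2 of 6 such fits. Their probes may read both genes, so these are not separate results with certainty.

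**Figure D4:**
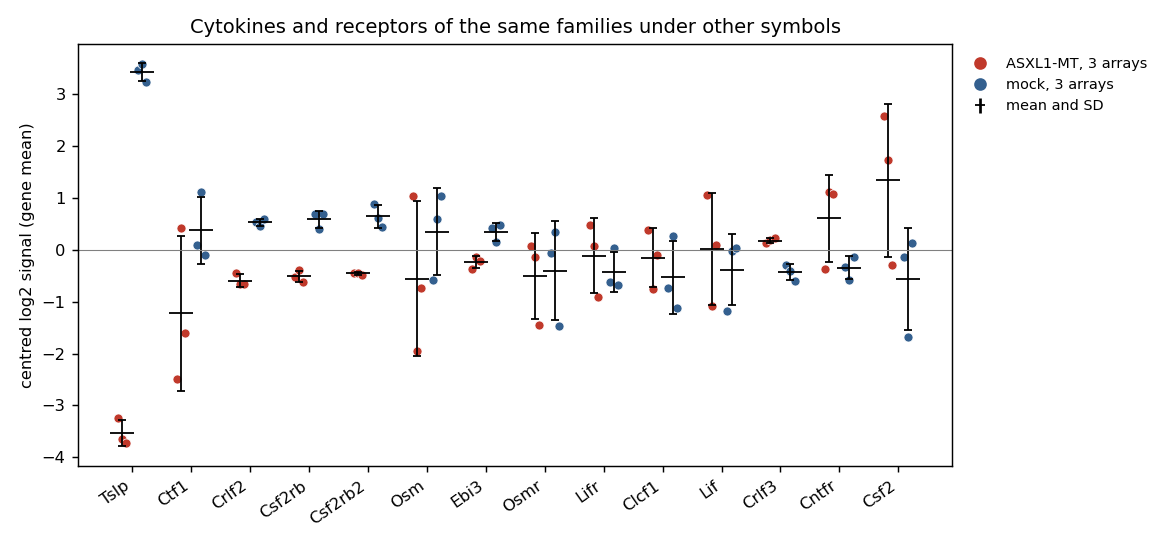
Centred log2 signal of gene means (vertical axis) for 14 cytokines and receptors of the same families under other symbols, with ASXL1-MT arrays in red, mock arrays in blue, and black bars for mean and SD. Tslp separates the groups most widely, from -3.72 to 3.58, and Csf2rb, Csf2rb2 and Crlf2 are lower in ASXL1-MT by about the same amount, -1.10 to -1.12.

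Of a list of 19 kinases, STAT factors and feedback genes downstream of the receptors, 18 were measured. Of these 1 was higher and 0 lower, beside 6.63% and 4.75% of all genes. The median change was -0.20, with 1 higher and 5 lower at an unadjusted p under 0.05 in limma. The gene that passed was Traf3ip2, which encodes Act1, the adaptor of IL-17 receptors. It read 0.51, 0.61 and 0.49 in the ASXL1-MT arrays and -1.01, -0.72 and -0.49 in the mock arrays. The groups were apart, and the change was 1.27 with an SE of 0.18, 2.41-fold higher, at an adjusted p of 0.0180, passing in 2 of 6 fits that left out an array. Socs3, the feedback inhibitor of gp130 signalling, read -0.06, -2.34 and -1.97 in the ASXL1-MT arrays and 0.06, 0.80 and 0.95 in the mock arrays. Replicate 1 of each group lay near the middle, as it did for Il6, and the difference of -2.06 did not pass (adjusted p 0.110).

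Marker genes of several cell types passed as well, beside 6.63% of all genes as higher and 4.75% as lower. The marker lists were chosen with earlier results of these data known, so their counts are not results about cell types. In bulk samples fewer cells of a type and less RNA per cell cannot be told apart. The defining neutrophil and monocyte genes of the labelled myeloid cells were measured with 7 of 8 and 5 of 5 genes bright, and 4 of 8 neutrophil genes were lower while 0 of 5 monocyte and macrophage genes passed in limma (0 higher and 1 lower at an unadjusted p under 0.05). Of 8 dendritic cell markers 5 were higher and 0 lower. Flt3 and Ciita passed in 5 of 6 fits that left out an array, Siglech and H2-Ab1 in 1 of 6 and Bst2 in 0 of 6. The mean of the 8 markers was 0.90 to 0.99 in the ASXL1-MT arrays and -2.18 to -0.85 in the mock arrays. Among marker genes of all lists that passed, such fits ran from 0 of 6 (Csf3r, Cd79b and Alas2 among them) to 6 of 6 (Cd8a and Cd8b1). Of 7 basophil and mast cell markers 2 were lower, Fcer1a with a change of -7.17 and Hdc of -2.39. Fcer1a had an SE of 0.95, in a dim probe set whose median, as for Tslp, lay between the groups. It passed in 2 of 6 fits that left out an array, against 5 of 6 for Hdc. The list median was -0.34. Cpa3 (-0.87, adjusted p 0.0518 in limma), Ms4a2 (-0.07), Mcpt8 (-0.34), Kit (0.20) and Gata2 (0.04) did not pass. The list mean, which Fcer1a and Hdc weigh on most, was -1.33 to -0.60 in the ASXL1-MT arrays and 0.52 to 0.81 in the mock arrays. Of 4 eosinophil markers 1 was lower and of 4 megakaryocyte markers 3 were lower. Both list means were lower in mock replicate 1 (-0.19 and 0.26) than in replicates 2 (2.07 and 1.56) and 3 (2.07 and 1.57), as were Il6 and Il4. Of 10 T and NK cell markers 3 were higher and 1 lower, and their mean was lowest in mock replicate 1, at -1.78 against -0.07 to 0.39 elsewhere. Gzma (-6.17) and Ncr1 (-4.26) weigh on it most there, while Cd3d (0.47), Cd3e (0.42) and Nkg7 (0.32) were above 0. The gene means of Il2rb, Il12b and Il23a were lowest in that array too, as was Il34 (-2.21). These genes were picked after their values were seen, and Il12b 1449497_at was not lowest there (-0.18). Of 7 B cell markers 2 were higher, of 8 stroma and endothelium markers 2 were higher and 1 lower, and of 4 erythroid markers 1 was higher. Their part in the changes of the interleukin genes was not tested.

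**Figure D5:**
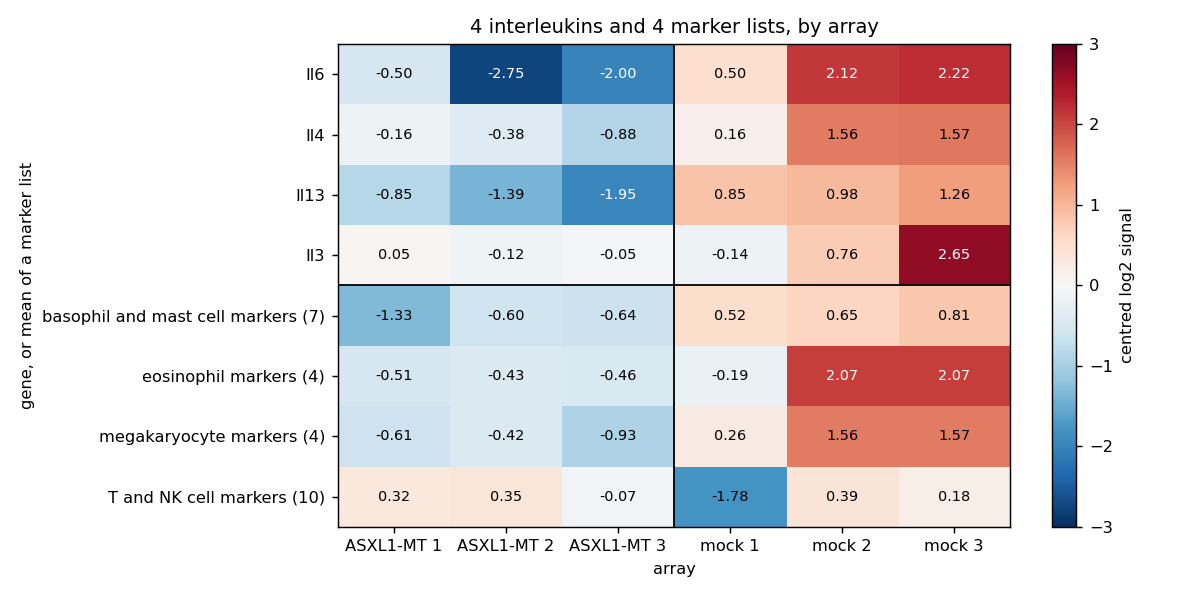
Centred log2 signal of 4 interleukins and of the means of 4 marker lists (rows) in each array (columns), on a colour scale from blue (low) to red (high) with the value printed in each cell. Mock replicate 1 is closer to 0 than the other mock arrays for Il6 (0.50) and Il4 (0.16), and the eosinophil mean there is -0.19.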

How the data were processed

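RNA of 6 samples, 3 a group, was read on Affymetrix mouse arrays. The authors made the signals with MAS5, per the submitters' processing notes, and deposited them as log values taken here as log2. Neither the base nor the centring is stated in the sources used here; row medians lay within 5e-07 of 0. No scanner files were used, so background and normalization were not redone. Symbols came from the platform annotation: 34945 probe sets have 1 symbol, 932 several and 9160 none here. All 60 member genes matched RefSeq by gene ID.

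All 45037 probe sets, and separately the means of each gene's probe sets over 18193 genes, went through limma 3.58.1 under R 4.3.3 (lmFit, then eBayes without trend), with group as the only term, two-sided, and Benjamini-Hochberg adjustment at 0.05. The number of arrays limits the precision. Bright means that the 3 highest arrays lie on a step of 20 binary places, within 0.1 of a step, which holds for log values of 8 or more. The fit and the bright rule were tested on simulated data. The simulated signals for the bright rule held no group difference. That test therefore does not cover probe sets whose median lies between the groups.

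Named genes were those past the threshold with their other probe sets, and a chosen group of receptor chains and ligands. With them are the 3 genes of smallest p in each role that did not pass, and genes of the 2 pathway lists past the threshold. Of the 10 marker lists, dendritic cell and basophil and mast cell genes past it are named, and most others are only counted. Genes named beyond that rule (Il23a, Il15ra, Osmr, Socs3, Cpa3, Ms4a2, Mcpt8, Kit, Gata2, Gzma, Ncr1, Cd3d, Cd3e) were chosen after their values were seen. The members and lists were chosen with earlier results of these data known. Alternatives were other normalizations, variance models, a replicate block, bright probe sets alone, the probe set of smallest SD, a threshold of 0.10, and leaving out each array.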

Additional observations from a re-analysis of the deposited data

How the results depend on the processing

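The member counts, 8 probe sets and 7 genes, were the same with quantile normalization, cyclic loess and equal array medians, and all 8 and 7 were shared with the count reported. These scalings moved the median change of all probe sets from 0.106 to between 0.00365 and 0.0245, and the share of higher calls among all calls from 58.4% to between 46.2% and 49.9%. A trend with a robust fit gave 14 member probe sets and 5816 in all, bright probe sets alone 13 and 6778, and an adjusted p of 0.10 gave 16 and 7169. Taking the probe set of smallest SD gave 11 member genes. Without 1 array, limma called 0 to 4 member probe sets, 2 to 5 member genes and 66 to 1142 probe sets in all; the 0 came without ASXL1-MT replicate 3, where 20 member probe sets had an unadjusted p under 0.05. With the replicate block, limma called 0 member probe sets, 0 member genes and 0 probe sets in all, with 24, 14 and 9874 at an unadjusted p under 0.05. Correlations of same-numbered arrays were -0.00882, -0.0116 and -0.00903, and those of the other pairs 0.00244 to 0.00664. Values this near 0 cannot show whether same-numbered arrays were handled together. The cause of these shifts was not tested, beyond the fewer probe sets or arrays that a setting itself leaves. No change that passed reversed its direction in any alternative run, but most of these runs could not have reversed it. Variance models and the replicate block leave the change itself as it was. Groups that do not overlap keep their sign whichever array is left out. Dim signal limits most of the members.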
